A study of Mus musculus with 6 samples.

Results

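The genes described here are 10 members of the integrated stress response, the programme built around the transcription factor ATF4, measured in RNA that co-precipitated with the RNA-binding protein LARP1 from mouse dorsal root ganglia (DRG). They were taken as the rows of the deposited count table with the Ensembl identifiers of Atf4, Atf5, Ddit3, Trib3, Chac1, Asns, Phgdh, Psat1, Sesn2 and Slc7a11. All 10 were among the 16976 identifiers listed, and 9 of them had a count. DRG hold the cell bodies of sensory neurons together with satellite glia, Schwann cells and other cells. The mice were wild type in both groups. In the injured group DRG were collected after sciatic nerve injury, and in the uninjured group without it; each group had 3 libraries. The labels give no time after injury, no age and no number of animals. LARP1 was precipitated by antibody from fresh DRG lysate, and the RNA was read as amplified nanopore cDNA.

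In the integrated stress response, kinases that sense amino acid shortage, misfolded protein, viral RNA or lack of haem phosphorylate the initiation factor eIF2 alpha. Most translation then falls, while the coding region of Atf4 mRNA is translated more, because its upstream open reading frames are read differently. ATF4 protein in turn activates genes for amino acid uptake and synthesis, redox balance and, under lasting stress, cell death. The amount of Atf4 mRNA is therefore not a measure of ATF4 protein. LARP1 is known for binding mRNAs that begin with a terminal oligopyrimidine (TOP) tract, a C at the cap followed by a run of pyrimidines.

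Each value is the level of an RNA in the precipitate, in counts per 1000000 of a library's or group's total (CPM). No total RNA or control precipitate was analysed here, so a change in LARP1 binding, a change in RNA amount and a change in the number of cells of one type cannot be told apart. The injured libraries held 211337 to 211879 counts and the uninjured libraries 116186 to 116608. Within a group the libraries differed by little more than counting noise, 1.12 times its variance over 6152 genes in the injured and 1.16 times over 3827 genes in the uninjured group, each gene with at least 15 counts. The libraries of a group were therefore counted as 1 sample, and an effect of injury and one of preparing or sequencing the groups separately cannot be told apart. Intervals are 95% exact intervals for counting error only. Amplified reads are not independent molecules, so the intervals can be too narrow even for that error. The markers of neurons and glia were not analysed here, because no table at hand pairs the other identifiers with symbols.

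The first bases of the RNAs are shown for the 3 transcription factors, since LARP1 is known for its preference for TOP starts. They are RefSeq promoter windows of build GRCm38.p6, with 15 bases before and 15 after the annotated start, and the first 5 transcribed bases are in capitals. Atf4 lies at chr15:80255169-80255198 on the plus strand, the first of 2 Atf5 starts at chr7:44816644-44816673 on the minus strand, and Ddit3 at chr10:127290778-127290807 on the plus strand.
Atf4: gaccgtcagagctttGGCTAggtgtcccac
Atf5: ggcgcggagggatccAGGCAagcccgcgct
Ddit3: gctctccgctcttgaGGTCAgttatcttga
None of the 12 annotated starts of the 10 genes began with C and 4 pyrimidines, a pattern held by 2.51% of all 32851 windows. An annotated start can differ from the one used in DRG, so this describes the annotation only.

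Atf4 (ENSMUSG00000042406), the central transcription factor of the response, was lower in the injured precipitate. Its raw counts were close in number, 185, 191 and 207 in the injured and 180, 179 and 177 in the uninjured libraries, but the uninjured libraries were shallower. Scaled to depth, its level was 873, 904 and 979 CPM in the injured libraries and 1549, 1535 and 1523 CPM in the uninjured libraries, and every injured library lay below every uninjured one. Over the summed counts this was 919 CPM (846 to 996) in the injured and 1536 CPM (1408 to 1671) in the uninjured group, a ratio of 0.598 (0.531 to 0.674). Put the other way, Atf4 was 1.67-fold lower in the injured precipitate (1.48 to 1.88).

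Atf5 (ENSMUSG00000038539), which encodes a bZIP factor close to ATF4 and likewise translated under eIF2 alpha phosphorylation, was higher in the injured precipitate. The injured libraries held 28, 14 and 27 counts of it, or 132, 66.2 and 128 CPM. The uninjured libraries held 9, 2 and 5 counts, or 77.4, 17.2 and 43.0 CPM. The libraries overlapped, the second injured one lying below the first uninjured one. The summed level was 109 CPM (84.6 to 138) in the injured and 45.8 CPM (26.2 to 74.4) in the uninjured group, a ratio of 2.37 (1.36 to 4.38). Single uninjured libraries moved it: leaving out the first turned the log2 ratio of 1.25 into 1.85, and leaving out the second gave 0.85.

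Ddit3 (ENSMUSG00000025408) encodes CHOP, a bZIP factor induced by ATF4 that promotes cell death under lasting stress, and its level was also higher in the injured precipitate. Counts were 12, 10 and 19 in the injured libraries, or 56.6, 47.3 and 89.9 CPM, and 2, 4 and 2 in the uninjured libraries, or 17.2, 34.3 and 17.2 CPM. Every injured library lay above every uninjured one. The summed level was 64.6 CPM (46.4 to 87.6) in the injured and 22.9 CPM (9.90 to 45.2) in the uninjured group. Their ratio was 2.82 (1.30 to 6.96), whose width comes from the 8 uninjured counts. Ddit3 did not pass the filter on low counts of the test across all genes. Of the 6 alternatives that admitted it, 2 called it and 4 did not. Both that called it admitted it through the injured libraries, where it was high, so these calls are a description. The call without the second uninjured library also left out its highest uninjured value, 34.3 CPM.

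**Figure D1:**
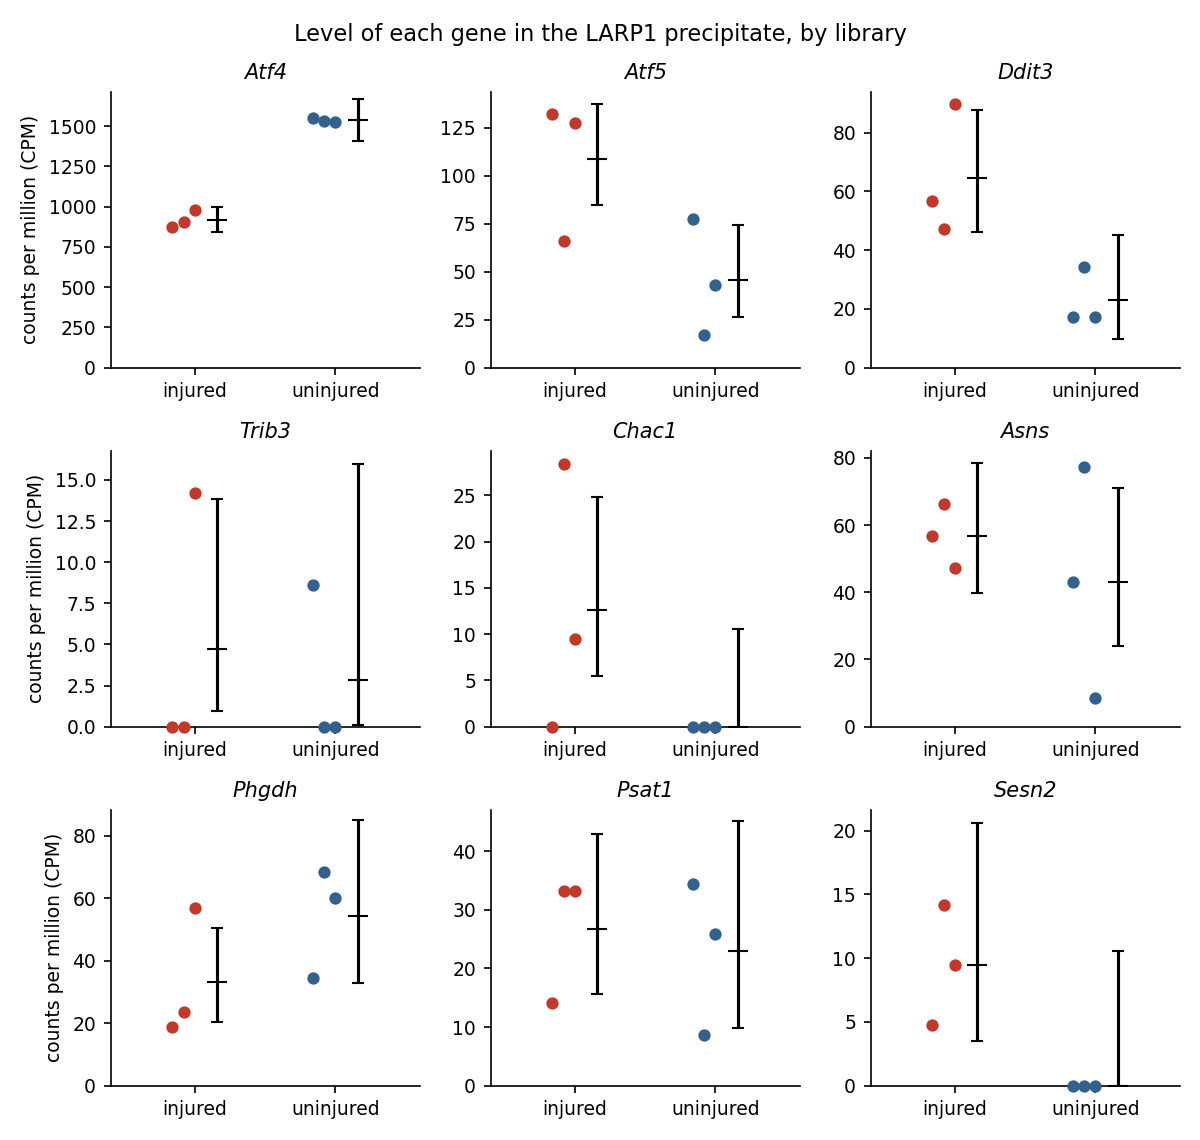
Level of the 9 genes with a count, in CPM, with injured libraries left (red) and uninjured libraries right (blue); each point is a library, and the black bar is the summed group with its 95% exact Poisson interval. Atf4 sits at 873 to 979 CPM in the injured and 1523 to 1549 CPM in the uninjured libraries, while Ddit3 has the opposite order and Asns, Phgdh and Psat1 overlap.

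For none of the 3 amino acid enzymes did the interval of the ratio exclude 1. Asns (ENSMUSG00000029752) makes asparagine from aspartate and is a long-known ATF4 target. There were 12, 14 and 10 counts in the injured libraries (56.6, 66.2 and 47.3 CPM) and 5, 9 and 1 counts in the uninjured libraries (43.0, 77.2 and 8.61 CPM). The uninjured libraries spanned the injured ones, and the ratio of 1.32 had an interval of 0.705 to 2.59. It rested on single libraries: the log2 ratio of 0.40 was 1.14 without the second and -0.08 without the third uninjured library.

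Phgdh (ENSMUSG00000053398) catalyses the first step of serine synthesis from a glycolytic intermediate. The injured libraries held 4, 5 and 12 counts (18.9, 23.7 and 56.8 CPM) and the uninjured libraries 4, 8 and 7 (34.4, 68.6 and 60.2 CPM). The groups overlapped through the third injured library, and the ratio was 0.608 (0.311 to 1.20). Its log2 ratio of -0.72 was -1.36 without that library. RefSeq lists a pseudogene, Phgdh-ps1, with which reads could be shared.

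Psat1 (ENSMUSG00000024640) catalyses the next step of serine synthesis. Counts of 3, 7 and 7 were seen in the injured libraries (14.2, 33.1 and 33.1 CPM) and of 4, 1 and 3 in the uninjured libraries (34.4, 8.58 and 25.8 CPM). The groups overlapped, and the ratio was 1.17 (0.478 to 3.13), so neither a difference of 2-fold upwards nor one of 2-fold downwards lay outside the interval. Asns, Phgdh and Psat1 together had 117 CPM in the injured and 120 CPM in the uninjured group, a ratio of 0.969 (0.655 to 1.45).

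The remaining genes were at or near the limit of detection, where 3 counts correspond to 4.73 CPM in the injured and 8.60 CPM in the uninjured group. Chac1 (ENSMUSG00000027313), which degrades glutathione, had 0, 6 and 2 counts in the injured libraries and none in the uninjured libraries. Its injured level of 12.6 CPM (5.44 to 24.8) was 1.47 times the uninjured floor of 3 counts over the group, a set value and not a bound. With counting error in both groups the lower limit of the ratio was 0.939, below 1. The second injured library gave 6 of its 8 counts, and without it the 2 counts left lie under the floor.

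Sesn2 (ENSMUSG00000028893) encodes a leucine-binding stress protein that restrains mTORC1. The injured libraries held 1, 3 and 2 counts, with none in the uninjured libraries. Its injured level of 9.45 CPM (3.47 to 20.6) was 1.10 times the same floor, and the lower limit of the ratio was 0.648. That level lay below 10.6 CPM, the upper end of the uninjured interval. The counts were spread over all 3 injured libraries.

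Trib3 (ENSMUSG00000032715), a pseudokinase that binds ATF4 and dampens it, had 3 counts in the third injured library and 1 count in the first uninjured library, a ratio of 1.65 (0.132 to 86.6). Slc7a11 (ENSMUSG00000027737), the cystine and glutamate exchanger xCT, had 0 of 634615 counts in the injured group, which by the limit of 3 counts allows up to 4.73 CPM (5.81 CPM by the upper end of the exact interval). It had 0 of 349027 in the uninjured group, which allows up to 8.60 CPM by the same limit (10.6 CPM by the interval). Of all genes with a count, 941 (7.11%) had at least 6 injured and 0 uninjured counts, as Chac1 and Sesn2 did.

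**Figure D2:**
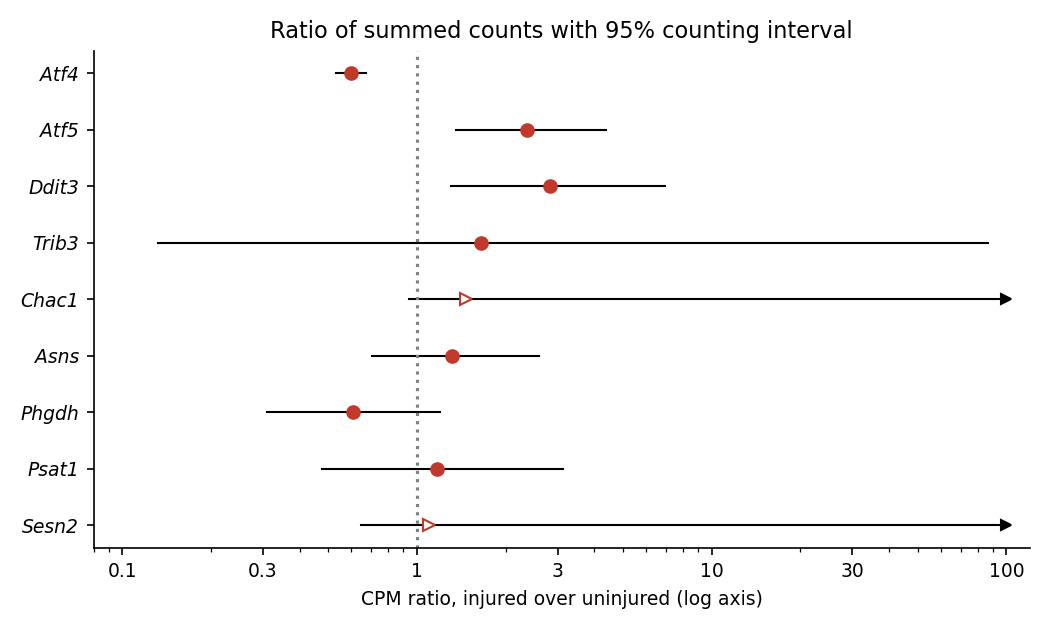
CPM ratio of summed counts, injured over uninjured, on a log axis, with the 95% exact counting interval; open triangles are ratios against the floor of 3 counts, whose intervals have no upper limit. The interval lies below 1 for Atf4 (0.531 to 0.674), above 1 for Atf5 (1.36 to 4.38) and Ddit3 (1.30 to 6.96), and includes 1 for the other 6 genes.

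Of the 9 genes with a count, the interval of the ratio lay above 1 for 2, Atf5 and Ddit3, and below 1 for 1, Atf4. Over all 13236 genes with a count the same held for 16.9% above and 12.4% below, so these numbers are near the background. Every injured library lay above every uninjured one for 2 of the 9, Ddit3 and Sesn2, and below for 1, Atf4. The shares over all 13236 genes were 24.2% and 13.2%, not recomputed at equal depth. Sesn2 met this with only 1, 3 and 2 injured counts and none in the shallower uninjured libraries. Among the 7 genes with counts in both groups, 5 had a ratio above 1 and 2 had a ratio below 1. The intervals of Trib3, Asns, Phgdh and Psat1 included 1. The share over all genes was not computed for this split, so it is a description only.

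The test across all genes, edgeR's quasi-likelihood test with a Benjamini-Hochberg threshold of 0.05, compares the reads of these 2 samples and not the conditions. Of the 10 genes, 2 passed its filter on low counts, Atf4 and Atf5. Both were called, Atf4 lower and Atf5 higher, where 47% of 3158 genes were called, 24.9% higher and 22.1% lower. Atf5 reached the filter through the injured libraries, where it was high, so its call is given as a description. The log2 fold change on its scale was -0.81 for Atf4 and 1.16 for Atf5. Atf5 was not called with limma-voom, with DESeq2, without a filter on low counts, or without the second or the third uninjured library. It did not reach the filter without the first or the third injured library, or with injured counts drawn down to the depth of the uninjured libraries. Atf4 was called lower in all 14 alternatives.

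By size, Atf5 was 1 of 575 genes (18.2% of those past the filter) at least 2-fold higher, and Atf4 was not among the 10.2% at least 2-fold lower. Atf5 had passed the filter through its injured counts, so its place here is a description too. The injured libraries were deeper, and these shares were not recomputed at equal depth. The log2 CPM ratio was -0.74 for Atf4, and 523 of the 3158 genes (16.6%) had a lower one. The median of all genes past the filter was 0.08, with quartiles of -0.46 and 0.74. Among the 296 abundant genes, those averaging 500 CPM or more over both groups, a class chosen after the values were seen, the median was -0.08, 44.6% were called lower, and 58 (19.6%) had a lower ratio than Atf4.

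**Figure D3:**
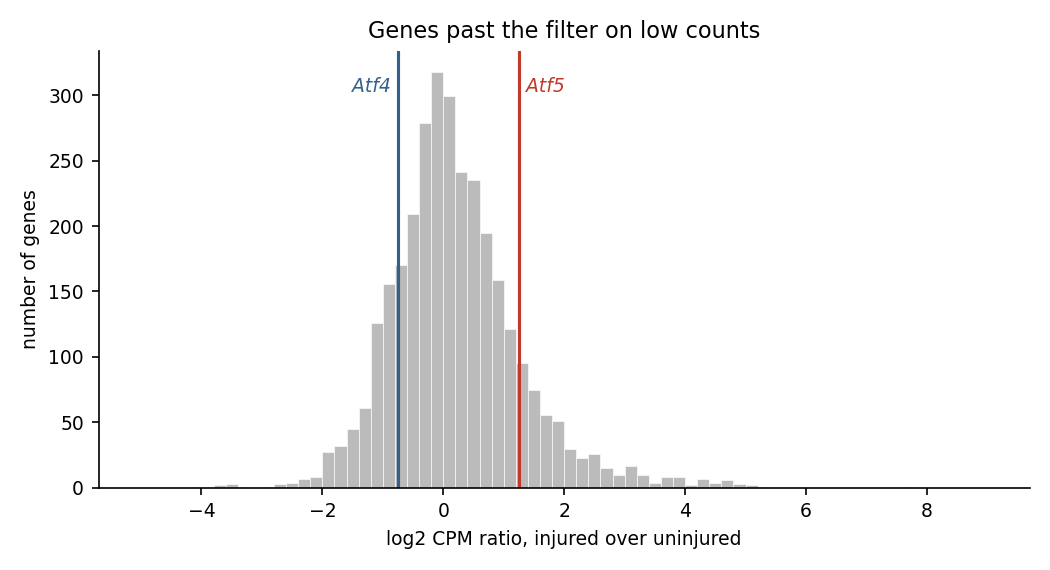
Distribution of the log2 CPM ratio, injured over uninjured, over the 3158 genes past the filter on low counts, as the number of genes per bin of 0.2. Atf4 at -0.74 lies below the lower quartile of -0.46 and Atf5 at 1.25 lies above the upper quartile of 0.74, both well inside the range of the other genes.

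The make-up of the counts of these 10 genes differed between the samples. Atf4 gave 583 of the 784 counts of the 10 genes in the injured group, or 74.4% (exact Clopper-Pearson interval 71.2% to 77.4%), and 536 of 603 in the uninjured group, or 88.9% (86.1% to 91.3%). The other 9 genes together had 283, 279 and 388 CPM in the injured libraries and 215, 206 and 155 CPM in the uninjured libraries. Every injured library was higher, and the summed ratio was 1.65 (1.25 to 2.21). Atf5 and Ddit3 gave 69 and 41 of the 201 injured counts, and 16 and 8 of the 67 uninjured counts. Asns, Phgdh and Psat1 together had a ratio of 0.969 (0.655 to 1.45), so the higher sum was not shared by all of the genes. No such sum was taken over other sets of genes for comparison. With Atf4 included, the 10 genes had 1235 CPM in the injured and 1728 CPM in the uninjured group, a ratio of 0.715 (0.642 to 0.796). These sums are of counts not scaled to transcript length.

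**Figure D4:**
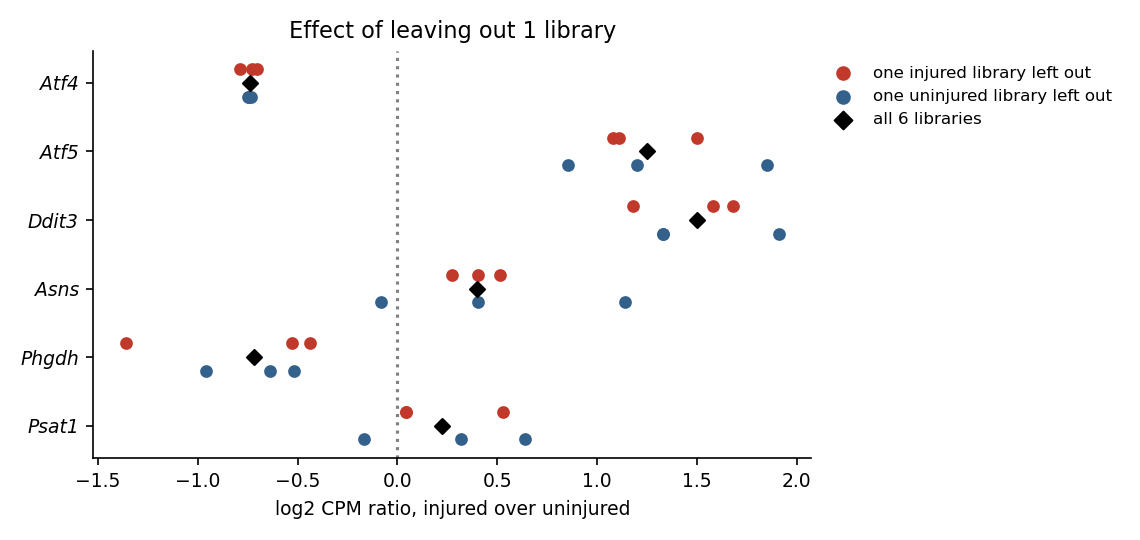
Log2 CPM ratio, injured over uninjured, for the 6 genes with at least 20 counts, with all 6 libraries (diamonds), with 1 injured library left out (red) and with 1 uninjured library left out (blue). Atf4 stays between -0.79 and -0.71 and Ddit3 between 1.18 and 1.91, Atf5 ranges from 0.85 to 1.85, and Asns (-0.08 to 1.14) and Psat1 (-0.17 to 0.64) fall on both sides of 0.

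ATF4 binds as a dimer with C/EBP factors to the C/EBP-ATF response element, so the promoter windows, 250 bases before to 50 after each annotated start, were searched on both strands for its core TGATGNAA. All 10 genes were matched by symbol, with 12 starts. The core was found in 4 of the 12 windows, those of Trib3, Chac1, Asns and Slc7a11, and in 3.97% of all 32851 windows. These stretches are shown because they hold the searched core, which is in capitals. Each is read 5′ to 3′ on the gene's strand. They are from chr2:152344028-152344057 (minus strand) for Trib3, chr2:119351025-119351080 (plus strand) for Chac1, chr6:7693210-7693256 (minus strand) for Asns and chr3:50443629-50443703 (minus strand) for Slc7a11, in build GRCm38.p6.
Trib3: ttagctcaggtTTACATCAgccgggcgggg
Chac1: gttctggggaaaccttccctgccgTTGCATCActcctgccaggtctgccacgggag
Asns: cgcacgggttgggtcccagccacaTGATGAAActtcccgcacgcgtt
Slc7a11: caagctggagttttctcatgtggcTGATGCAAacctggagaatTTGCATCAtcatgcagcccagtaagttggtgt
Slc7a11 held 2 cores, on opposite strands, at bases -66 to -59 and -47 to -40 from the start. The core of Asns lay at -23 to -16, that of Chac1 at -193 to -186, and that of Trib3 after the start, at 15 to 22. The endoplasmic reticulum stress element was in none of the 12 windows and in 0.119% of all windows. The genes with the core had from 0 to 36 counts in the injured group and from 0 to 15 in the uninjured group. Atf4, Atf5, Ddit3, Phgdh, Psat1 and Sesn2 had no core in these windows. Sites further from the start, or with other letters than the core, would be missed by this search. A match describes the letters of the window and is not a measured site, and a window without a match does not show that the gene lacks a site.

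**Figure D5:**
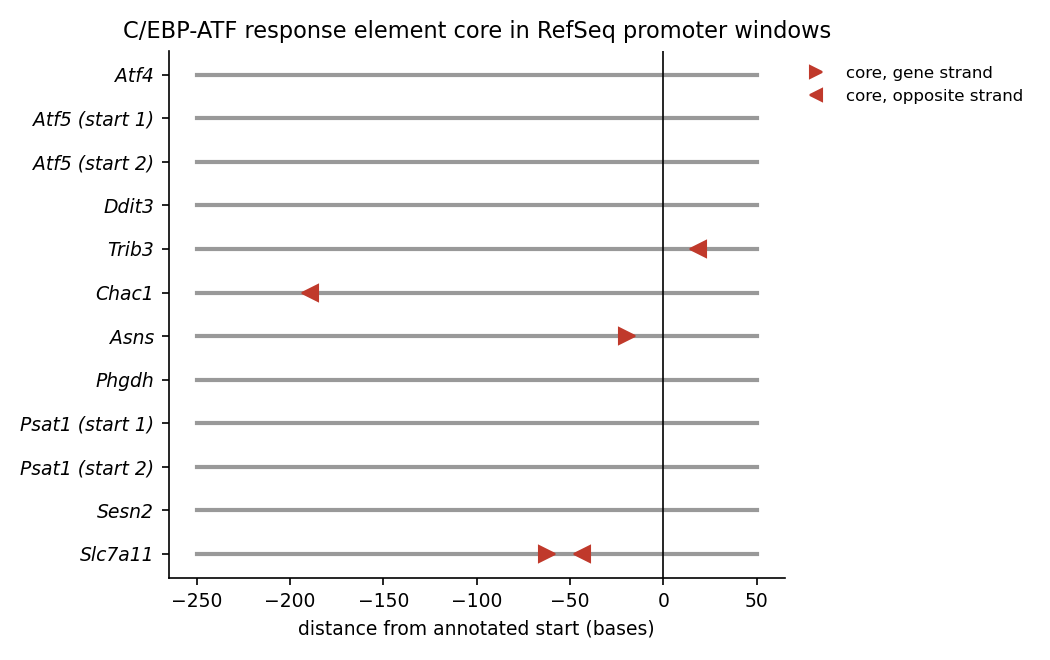
Position of the core TGATGNAA in the RefSeq promoter windows of the 10 genes (12 annotated starts), in bases from the annotated start; arrowheads pointing right are on the gene's strand and those pointing left on the opposite strand. Cores lie before the start in Chac1, Asns and Slc7a11, which has 2, and after it in Trib3.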

How the data were processed

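Estimated counts per Ensembl gene identifier were used as deposited, not normalized; the tools named in the submitters' processing notes are minimap2 and Salmon, and the build GRCm39 (mm39); versions, annotation and filters are not given in the sources used. All values were whole numbers, so rounding changed none. Per the labels' protocols, libraries came from an anti-LARP1 precipitate and a nanopore cDNA-PCR barcoding kit. Salmon shares reads between similar transcripts by estimation. Columns were matched to samples by library name; 0 columns and 0 rows were left unused. Gene symbols of the 10 identifiers came with their selection.

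CPM used full column totals. Ratios of summed counts carry exact Clopper-Pearson intervals, levels exact Poisson intervals, and a group at 0 was set to 3 counts over the group. The members, lists and tests were chosen with earlier results of these data known. The test was edgeR 4.0.16 (R 4.3.3) with TMM factors (1.04 in injured, 0.960 to 0.965 in uninjured libraries) and filterByExpr, checked on simulated data. Because each group was counted as 1 sample, single genes are given without p-values. Alternatives were limma-voom (limma 3.58.1), DESeq2 1.42.0, further scalings and filters, the replicate number as a block, thinning to 116342 counts and leaving out each library. All 10 genes are named; further pathway lists and cell type markers were fixed but not analysed here, because no table at hand pairs Ensembl identifiers with symbols. Promoter windows are RefSeq's, build GRCm38.p6.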

Additional observations from a re-analysis of the deposited data

How the results depend on the processing

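Atf4 was called lower under all 14 alternatives, with fitted log2 fold changes of -0.88 to -0.70. Its log2 CPM ratio stayed between -0.85 and -0.71 over 9 alternatives. All alternatives drew on the same 2 samples, so they describe the processing and do not repeat the comparison. The number of genes called higher, 1 with the filter used (Atf5), was 2 with a filter of at least 10 counts in 3 libraries (Atf5 and Ddit3, both admitted through their injured counts), and 0 without a filter, with DESeq2, with limma-voom and with the injured libraries thinned. Leaving out 1 library gave 0 to 1. Without the second uninjured library the 1 gene was Ddit3, not Atf5. Ddit3 was again admitted through its injured counts, and the library left out held its highest uninjured count. Ddit3 was in the test but not called without a filter, with DESeq2, and without the first or the third uninjured library. Atf5's fitted log2 fold change was 0.77 to 1.75. The replicate block left 1 gene higher and 1 lower. The numbers were not taken as pairing the libraries, since the correlation of deviations between libraries of equal number was 0.0389, -0.00625 and -0.0506 (2976 genes). Past the filter, 1 gene was at least 2-fold higher and 0 to 1 were when 1 library was left out; with 1.5-fold in place of 2-fold, 1 gene (Atf4) was lower. Chac1 and Sesn2 fell to the floor or under a ratio of 1 without any 1 uninjured library or the second injured one. Trib3 did so without the only library of a group with a count. No value is given for these. Depth sets the width of the counting intervals: with 8 to 19 uninjured counts, the ratio was bounded within 0.705 to 2.59 for Asns, 0.311 to 1.20 for Phgdh and 0.478 to 3.13 for Psat1.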
